A study of Mus musculus with 10 samples.

Results

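Rab GTPases are the largest family of Ras-like GTP-binding proteins, and their transcripts were followed in C2C12 myoblasts after knockdown of *Fndc1*. The members were the genes of the deposited table whose symbol is Rab followed by a number and at most 1 letter and 1 further digit, and which list protein_coding among their transcript types. Of the 55359 genes in the table, 59 met this rule, and 18 of the 59 list protein_coding as their single type. C2C12 is a mouse myoblast line whose cells fuse into myotubes when serum is lowered. All 10 libraries came from C2C12 cells transfected with siRNA at 100 nM, 5 receiving a control siRNA (si-Control) and 5 one that targets *Fndc1* (si-Fndc1), and the labels place all of them at 4 days of differentiation in 2% horse serum. The description of the series instead gives 48 h, and the methods of the study name 4 libraries without saying which, so all 10 were used. The knockdown was by transient transfection, and nothing in the labels says that replicates came from separate cultures, so p-values measure the spread between these libraries, which may be technical.

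A Rab protein cycles between a GDP-bound form held in the cytosol and a GTP-bound form on a membrane, where it recruits the tethers, motors and fusion factors that move a vesicle to its target. Each Rab marks its own compartment: Rab1 and Rab2 the traffic between endoplasmic reticulum (ER) and Golgi, Rab5 the early endosome, Rab4 and Rab11 the return of receptors to the cell surface, Rab7 the late endosome and lysosome, and Rab8, Rab10 and Rab13 exocytosis. In muscle, this traffic delivers the glucose transporter GLUT4 to the cell surface and recycles integrins and other receptors.

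The total count was 66771605 to 75995168 reads in si-Control libraries and 56332844 to 72839369 reads in si-Fndc1 libraries. *Fndc1* itself fell from 27.8 ± 2.04 to 20.9 ± 1.70 FPKM (SD, n = 5 each; fragments scaled to transcript length and library size), a log2 fold change of -0.40 (standard error 0.07, edgeR adjusted p = 0.000934). All 8 muscle markers were expressed, at a summed 3544 to 3979 FPKM in si-Control and 3384 to 4125 FPKM in si-Fndc1. Of these, 4 rose (Mymk, Myod1, Ckm and Tnnt1) and 0 fell, beside 17.3% and 17.2% of all tested genes. The log2 fold change was 0.26 for Mymk (Myomaker; edgeR adjusted p = 0.0188) and -0.12 for Myog (edgeR adjusted p = 0.137). In its own assays the study reports less Myomaker mRNA and MYOG protein after knockdown. The reason for this difference was not tested. All 16 liver markers, genes of plasma proteins and liver enzymes, rose, from a summed 0.28 to 7.03 FPKM in si-Control to 58.5 to 199.8 FPKM in si-Fndc1. The blood markers summed to at most 2.51 FPKM and the epithelial markers to at most 0.97 FPKM in any library, with Ptprc and Epcam at 0, and of the nerve markers Rbfox3 and Snap25 were at 0 while Tubb3, which myoblasts also express, made up nearly the whole sum of 30.6 to 37.9 FPKM. The part of the liver transcripts in the Rab results was not tested.

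C2C12 cells expressed most of the family. Of the 59 genes, 45 reached the mean of 0.5 FPKM over the 10 libraries that was required for testing, and 27 reached 10 FPKM. The most abundant member was Rab7 (ENSMUSG00000079477, chromosome 6 from 87976088 to 88022252, minus strand), which directs late endosomes to the lysosome. It measured 120.1, 145, 142, 146 and 149 FPKM in si-Control libraries 1 to 5 and 144, 145, 152, 149 and 155 FPKM in si-Fndc1 libraries 1 to 5. Library 1 of si-Control was the low one, the groups overlapped, and the log2 fold change was 0.09 (standard error 0.05, edgeR adjusted p = 0.216). Rab2a came second, below Rab7 in all 10 libraries. Rab10, an exocytic Rab, came next, at 74.2, 67.2, 67.5, 72.6 and 70.4 FPKM in si-Control and 73.04, 73.9, 69.6, 69.98 and 69.5 FPKM in si-Fndc1. Rab1b, Rab31 and Rab1a followed, and their ranges over the 10 libraries (55.8 to 65.8, 56.4 to 63.1 and 53.9 to 64.6 FPKM) overlapped, and the order of Rab1a and Rab1b differed between the groups, as described below. Rab31, a Rab5 relative of the early endosome, stood at 57.7, 62.6, 60.9, 56.4 and 60.2 FPKM in si-Control and 59.8, 59.8, 60.03, 61.3 and 63.1 FPKM in si-Fndc1. Its groups overlapped throughout (log2 fold change 0.04, standard error 0.03, edgeR adjusted p = 0.417). Together Rab7, Rab2a, Rab10, Rab1b and Rab31 held 45.7% of the summed FPKM of the family.

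The remaining 14 members had a mean of at most 0.148 FPKM and no more than 58 reads in any library. Rab3c, a synaptic vesicle Rab, and Rab19 and Rab39 had 0 reads in all 10 libraries, which at 56332844 reads or more per library leaves them below detection at this depth and does not show that they are absent. The gap at the threshold was wide: Rab30, the lowest member tested, had a mean of 0.534 FPKM, and Rab39b, the highest one not tested, had 0.148 FPKM. Rab17, a Rab of polarised epithelia, had 0 reads in all si-Control libraries and 8, 3, 0, 12 and 0 reads in si-Fndc1 libraries 1 to 5. Rab25 went the other way, with at most 15 reads in a si-Control library and at most 4 in a si-Fndc1 library. Both had too few reads for a test.

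Many Rab genes encode the same 7 residues at the start of switch II, a loop of the GTP-binding site but with different codons. The motif was found in the longest coding transcript (GENCODE M1, NCBIM37) of 49 of the 59 members. It is shown 5′ to 3′ on the coding strand for some of the paralogs whose relative levels are compared below. Capitals mark the bases G and C at the last position of a codon.
Rab1a: tgGgaCacagcaggCcaGgaa
Rab1b: tgGgaCacagctggtcaGgaG
Rab2a: tgGgatacagcaggGcaGgaG
Rab4a: tgGgaCacGgcCggCcaGgaG
Rab4b: tgGgaCactgctggCcaGgaG
Rab5a: tgGgatacagctggtcaagaa
Rab5b: tgGgaCactgctggGcaGgaG
Rab5c: tgGgaCacagctggCcaagaG
Rab11a: tgGgaCacagcaggGcaGgaG
Rab11b: tgGgaCactgctggCcaGgaG
Rab5a has G or C at 1 of the 7 last codon positions of this stretch, against 5 in Rab5b and 4 in Rab5c. Over the whole coding sequence, G or C stood at 31.5% of last codon positions in Rab5a, 56.02% in Rab5b and 63.8% in Rab5c. For the other pairs shown, the short stretch did not follow the whole coding sequence. Rab1a and Rab1b each have G or C at 4 of the 7 positions, with 46.1% and 68.8% over the coding sequence. Rab11a and Rab11b each have it at 5 of the 7, with 39.6% and 67.6% over the coding sequence. Rab4a has it at all 7 and Rab4b at 5, although Rab4a is lower over the coding sequence (57.99% against 66.8%).

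Between si-Fndc1 and si-Control, 15 of the 45 tested members (33.3%) had a Benjamini-Hochberg adjusted p under 0.05 in the quasi-likelihood test of edgeR over 13548 genes, beside 34.4% of all tested genes. Of the 15, 11 rose (background 17.3% of all genes) and 4 fell (background 17.2%), and 16 members had an unadjusted p under 0.05. The share of the family called was near that of all tested genes, many of which are lower in level. With testing limited to genes with a mean of at least 5 FPKM, 13 of 34 members and 3431 of 6924 genes were called. At that level the share called was lower among the members. With an offset for GC content and transcript length, which is described below, 5 of the 15 kept their call and direction (Rab4a, Rab2a, Rab30 and Rab5a, which rose, and Rab6a, which fell), and the other 10 lost theirs. The changes were small, the median absolute log2 fold change being 0.25 among called members and 0.29 among all called genes, and none reached an absolute log2 fold change of 1. The median log2 fold change over the 45 members was 0.03, and over all genes it was 0.00. By library-size scaled counts (CPM), 12 of the 45 separated the groups without overlap, 9 higher and 3 lower in si-Fndc1, beside 25.0% of all genes (12.7% higher, 12.3% lower). In all, the family made up 0.349% to 0.363% of the reads of each si-Control library and 0.375% to 0.377% of those of each si-Fndc1 library. Its FPKM summed to between 930.3 and 968.7 without the knockdown and to between 987.2 and 1018 with it. The mean sum over tested members went from 948.8 to 999.04 FPKM, and Rab2a alone went from 94.99 to 123 FPKM within it. The rise of Rab2a was smaller with the offset (log2 fold change 0.12). How often totals of other gene families separate the groups was not computed. In bulk RNA, a change in the number of cells of a type and a change in RNA per cell cannot be told apart.

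**Figure D1:**
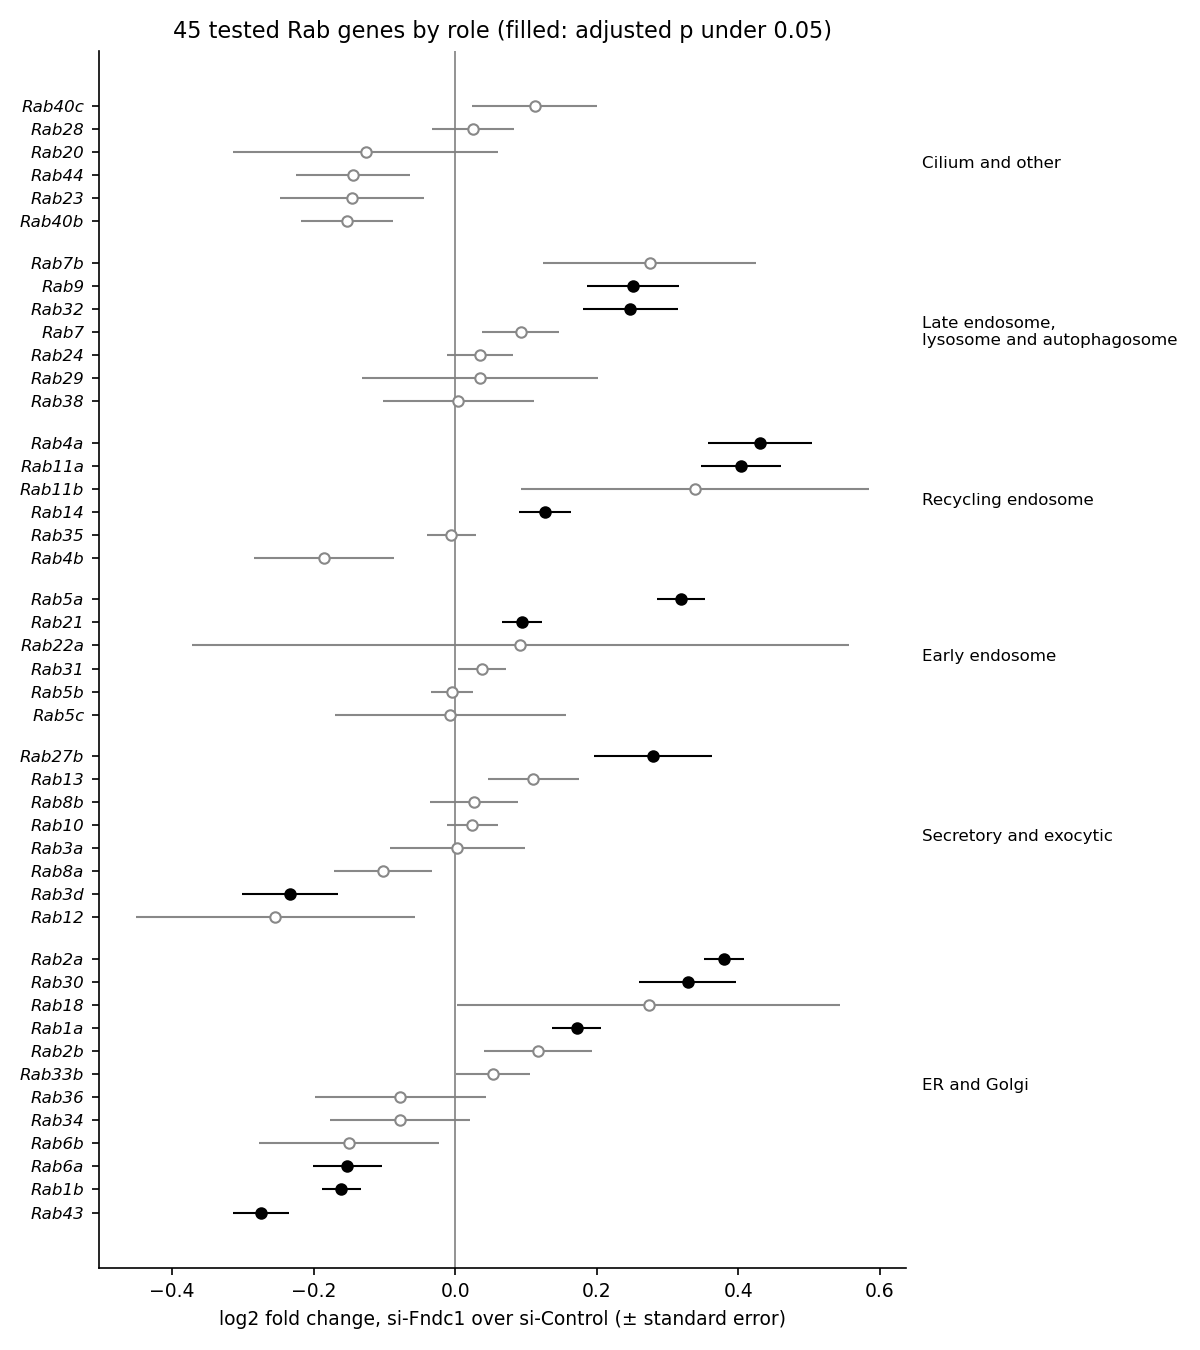
Log2 fold change of si-Fndc1 over si-Control (x axis) for the 45 tested Rab genes, grouped by compartment, with bars of ± 1 standard error and filled points for an adjusted p under 0.05. Filled points on the right lie in every group but the one that holds the cilium and all other members. Filled points on the left lie in the ER and Golgi and the secretory groups.

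Of the 14 members of the ER and Golgi, 12 were tested, 3 rose and 3 fell, beside 17.3% and 17.2% of all tested genes. With the offset, 2 rose and 1 fell. Rab2a (ENSMUSG00000047187, chromosome 4 from 8535644 to 8607778, plus strand), which acts on the intermediate compartment between ER and Golgi, measured 95.7, 97.2, 94.3, 93.5 and 94.3 FPKM in si-Control libraries 1 to 5 and 119, 122, 121, 123 and 129.6 FPKM in si-Fndc1 libraries 1 to 5. Every si-Fndc1 library lay above every si-Control library. The means were 94.99 ± 1.46 FPKM in si-Control and 123 ± 3.99 FPKM in si-Fndc1 (SD, n = 5 each), and the fitted log2 fold change was 0.38 (standard error 0.03, edgeR adjusted p = 1.50e-05). Rab2a was the most abundant member that passed the test, and its counts were 14938 to 21152 reads per library.

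Rab1a (ENSMUSG00000020149, chromosome 11 from 20151432 to 20176856, plus strand) and Rab1b (ENSMUSG00000024870, chromosome 19 from 5149233 to 5157100, minus strand) encode nearly identical proteins that carry cargo from ER to Golgi, and they moved in opposite directions, although neither passed the test with the offset (-0.03 and -0.05). Rab1a stood at 57.5, 58.8, 55.7, 53.9 and 54.3 FPKM in si-Control and 64.6, 62.8, 58.9, 63.1 and 64.6 FPKM in si-Fndc1. Each si-Fndc1 library exceeded each si-Control library, though by a narrow margin for library 3. Its log2 fold change was 0.17 (standard error 0.03, edgeR adjusted p = 0.00330). Rab1b stood at 61.8, 62.1, 64.7, 65.8 and 65.00 FPKM in si-Control and 56.01, 55.8, 57.2, 56.95 and 58.3 FPKM in si-Fndc1. Here every si-Fndc1 library was below every si-Control library, with a log2 fold change of -0.16 (standard error 0.03, edgeR adjusted p = 0.00116). The sum of both paralogs was 119.9 ± 0.684 FPKM in si-Control and 119.7 ± 2.50 FPKM in si-Fndc1 (SD, n = 5 each), and its ranges overlapped.

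Rab30 (ENSMUSG00000030643, chromosome 7 from 92390811 to 92493743, plus strand), a Rab of the Golgi, was low, at 0.458, 0.441, 0.488, 0.496 and 0.488 FPKM in si-Control and 0.585, 0.576, 0.609, 0.590 and 0.604 FPKM in si-Fndc1 (339 to 462 reads). Its groups did not overlap, and its log2 fold change was 0.33 (standard error 0.07, edgeR adjusted p = 0.00399). The call was lost by limma on log2(FPKM + 1) with quantile normalization (0.10, adjusted p = 0.0933), by limma on log2(FPKM + 0.1) (0.27, adjusted p = 0.0719) and by edgeR with both the offset and a replicate block (0.29, adjusted p = 0.0533). Rab43 (ENSMUSG00000030055, chromosome 6 from 87765835 to 87789146, minus strand), which acts between ER and Golgi, measured 11.2, 11.7, 12.5, 11.3 and 11.3 FPKM in si-Control and 9.50, 9.41, 9.14, 9.50 and 10.2 FPKM in si-Fndc1. All si-Fndc1 libraries were lower, and the log2 fold change was -0.27 (standard error 0.04, edgeR adjusted p = 4.54e-04). This was the lowest value of the family as counted, but with the offset Rab43 was not called, at -0.08, and Rab12, Rab6a and Rab40b were lower (-0.32, -0.30 and -0.29). Rab6a (ENSMUSG00000030704, chromosome 7 from 100256617 to 100290475, plus strand), the Rab of retrograde Golgi traffic, measured 22.3, 22.4, 21.4, 21.1 and 23.6 FPKM in si-Control and 17.9, 20.7, 20.4, 19.5 and 20.6 FPKM in si-Fndc1. Its groups did not overlap, with library 2 of si-Fndc1 close to library 4 of si-Control, and the log2 fold change was -0.15 (standard error 0.05, edgeR adjusted p = 0.0321). The call of Rab6a was lost without library 1, 2 or 5 of si-Control or library 1 or 4 of si-Fndc1 (adjusted p up to 0.0759). Rab6b, Rab33b, Rab34, Rab36, Rab2b and Rab18 did not pass the test, with log2 fold changes between -0.15 (Rab6b) and 0.27 (Rab18).

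Of 13 secretory members 8 were tested, and 1 rose and 1 fell, beside 17.3% and 17.2% of all tested genes. In each of the 8 the CPM ranges of the groups overlapped, and with the offset no secretory member was called. Rab27b, which docks secretory granules and exosomes, ranged over 1.19 to 1.46 FPKM in si-Control and 1.40 to 1.79 FPKM in si-Fndc1, with a log2 fold change of 0.28 (standard error 0.08, edgeR adjusted p = 0.0240). Rab3d, a Rab of regulated secretion, ranged over 5.12 to 5.98 FPKM in si-Control and 4.19 to 5.27 FPKM in si-Fndc1, with a log2 fold change of -0.23 (standard error 0.07, edgeR adjusted p = 0.0206). Rab27b lost its call without library 1, 3 or 5 of si-Control or library 3 or 5 of si-Fndc1 (adjusted p up to 0.0576), and Rab3d without library 3 of si-Control (0.0507). Of the Rabs known from GLUT4 traffic in muscle and fat cells, Rab8a, Rab10 and Rab13 belong here and did not pass the test, while Rab14, given with the recycling Rabs, did. Rab8a measured 13.99, 14.8, 16.1, 13.9 and 13.4 FPKM in si-Control and 14.4, 11.8, 12.5, 14.7 and 13.6 FPKM in si-Fndc1, with overlapping groups and a log2 fold change of -0.10 (standard error 0.07, edgeR adjusted p = 0.279). Rab13, which also acts at tight junctions of epithelia, measured 9.04, 10.5, 10.3, 9.13 and 9.27 FPKM in si-Control and 9.78, 9.61, 10.9, 10.7 and 10.9 FPKM in si-Fndc1, again with overlap (log2 fold change 0.11, standard error 0.06, edgeR adjusted p = 0.211). Rab10, whose values are given above, had a log2 fold change of 0.02 (standard error 0.04, edgeR adjusted p = 0.648).

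All 6 early endosome members were tested, and 2 rose (1 with the offset), beside 17.3% of all tested genes. Rab5a (ENSMUSG00000017831, chromosome 17 from 53786262 to 53814708, plus strand), the GTPase that drives fusion of early endosomes, measured 18.7, 18.5, 17.2, 18.6 and 17.95 FPKM in si-Control and 23.99, 22.3, 22.1, 21.9 and 22.6 FPKM in si-Fndc1. All si-Fndc1 libraries were higher, by far more than the spread within a group, at a log2 fold change of 0.32 (standard error 0.03, edgeR adjusted p = 7.56e-05). Its paralog Rab5b, which was more abundant, ranged over 49.1 to 52.4 FPKM in si-Control and 48.2 to 52.1 FPKM in si-Fndc1 and had a log2 fold change of -0.005 (standard error 0.03, edgeR adjusted p = 0.923). Rab21, which binds integrins during their endocytosis, had the smallest change of the called members as counted, with 20.6 to 21.9 FPKM in si-Control and 21.9 to 22.9 FPKM in si-Fndc1 (log2 fold change 0.09, standard error 0.03, edgeR adjusted p = 0.0240). The FPKM ranges of Rab21 overlapped, and its call was lost without library 3 or 4 of si-Control (adjusted p up to 0.0603).

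As counted, the 2 largest rises of the family were in recycling Rabs, Rab4a and Rab11a, of which Rab11a lost its call with the offset. Of 9 members 6 were tested, 3 rose and 0 fell, beside 17.3% and 17.2% of all tested genes. With the offset, 1 rose (Rab4a) and 0 fell, and so few members do not give a direction for the group. Rab4a (ENSMUSG00000019478, chromosome 8 from 124532724 to 124562026, plus strand), a Rab of fast recycling, measured 5.29, 5.06, 5.27, 5.19 and 5.71 FPKM in si-Control and 7.45, 6.92, 8.08, 6.35 and 6.79 FPKM in si-Fndc1. The groups did not overlap, and si-Fndc1 library 3 was the highest. The means were 5.31 ± 0.244 FPKM in si-Control and 7.12 ± 0.668 FPKM in si-Fndc1 (SD, n = 5 each), and the fitted log2 fold change was 0.43 (standard error 0.07, edgeR adjusted p = 0.00117). Rab11a (ENSMUSG00000004771, chromosome 9 from 64622581 to 64645040, minus strand), which returns receptors through the slow recycling endosome, measured 14.4, 14.7, 16.3, 13.7 and 14.1 FPKM in si-Control and 17.8, 18.8, 19.1, 20.7 and 20.1 FPKM in si-Fndc1. Every si-Fndc1 library was above every si-Control library, with a log2 fold change of 0.40 (standard error 0.06, edgeR adjusted p = 3.49e-04). Rab14, which acts between Golgi and recycling endosomes, measured 10.5, 9.97, 10.3, 10.2 and 9.76 FPKM in si-Control and 11.7, 11.1, 11.3, 10.6 and 10.5 FPKM in si-Fndc1. Library 5 of si-Fndc1 fell below library 1 of si-Control, so the groups overlapped, and the log2 fold change was 0.13 (standard error 0.04, edgeR adjusted p = 0.0216). That call was lost without si-Control library 5 or si-Fndc1 library 1 (adjusted p up to 0.0539). Rab35, which works in recycling to the plasma membrane, measured 21.2, 20.3, 22.9, 22.1 and 21.7 FPKM in si-Control and 21.3, 21.4, 21.1, 21.1 and 22.2 FPKM in si-Fndc1, with full overlap and a log2 fold change of -0.01 (standard error 0.03, edgeR adjusted p = 0.922). Rab4b, the paralog of Rab4a, ranged over 13.1 to 18.7 FPKM in si-Control and 11.8 to 14.8 FPKM in si-Fndc1, and its log2 fold change of -0.19 (standard error 0.10, edgeR adjusted p = 0.176) did not pass the test.

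Of 10 members of the late endosome, lysosome and autophagosome, 7 were tested, 2 rose and 0 fell, beside 17.3% and 17.2% of all tested genes. With the offset, no member of this group was called. Rab9 (ENSMUSG00000079316, chromosome X from 165240249 to 165262863, minus strand), which sends mannose 6-phosphate receptors from late endosomes back to the Golgi, measured 18.5, 20.4, 19.6, 16.9 and 19.5 FPKM in si-Control and 21.6, 20.3, 22.7, 22.9 and 24.9 FPKM in si-Fndc1. Library 2 of each group met at nearly the same FPKM, and the other si-Fndc1 libraries were higher. The log2 fold change of Rab9 was 0.25 (standard error 0.06, edgeR adjusted p = 0.0120). Rab32 (ENSMUSG00000019832, chromosome 10 from 10420746 to 10434009, minus strand), a Rab of lysosome-related organelles and mitochondria, measured 6.20, 6.02, 6.03, 5.51 and 5.70 FPKM in si-Control and 6.58, 6.56, 7.83, 7.22 and 6.59 FPKM in si-Fndc1. Its groups did not overlap (log2 fold change 0.25, standard error 0.07, edgeR adjusted p = 0.0158). Rab38, its closest relative, ranged over 3.86 to 4.39 FPKM in si-Control and 3.19 to 4.81 FPKM in si-Fndc1 and had a log2 fold change of 0.00 (standard error 0.11, edgeR adjusted p = 0.982). Rab7b, Rab24 and Rab29 did not pass the test, with log2 fold changes of 0.27, 0.04 and 0.03. The 7 other members included Rab23 (a brake on Hedgehog signalling at the cilium), Rab28 and the Rab40 pair that recruits ubiquitin ligases. Of these 7, 6 were tested and none passed as counted, beside 34.4% of all tested genes called, and with the offset 1 fell (Rab40b). For these 6 the log2 fold changes ran from -0.15 (Rab40b) to 0.11 (Rab40c).

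**Figure D2:**
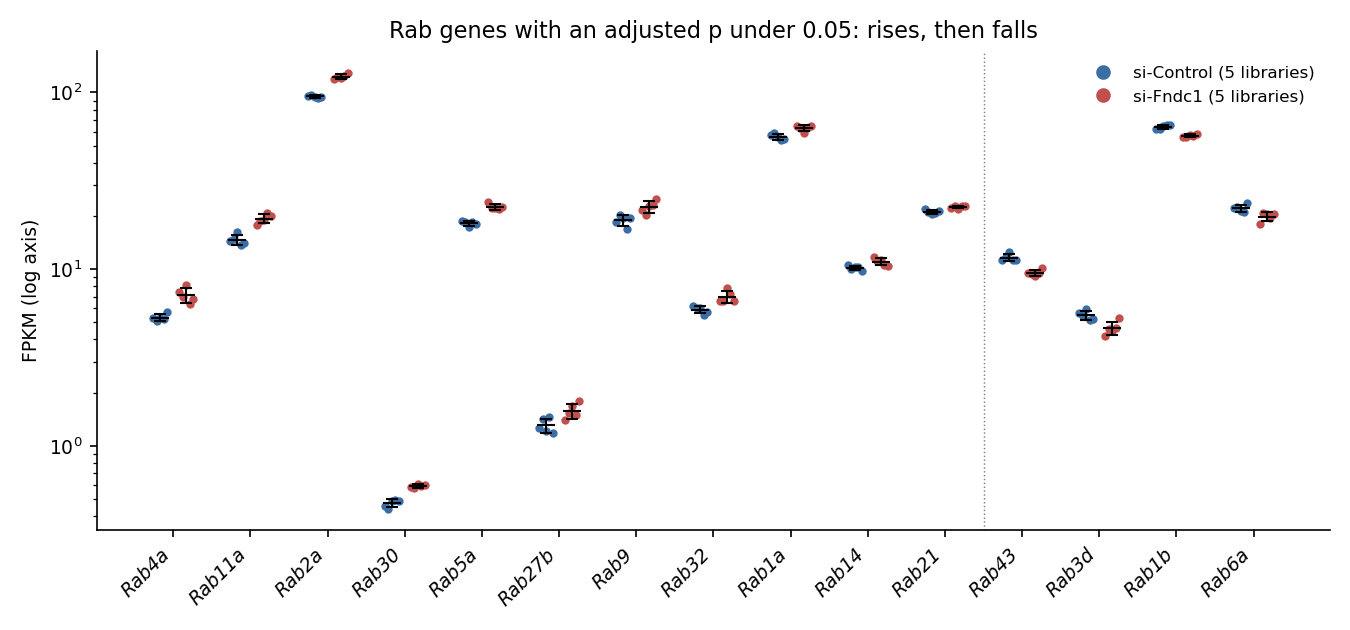
FPKM (log axis) of the 15 Rab genes with an adjusted p under 0.05, the 11 that rose left of the dotted line and the 4 that fell right of it, with 1 point per library and the mean ± SD of 5 libraries per group. The groups of 10 genes do not overlap, and those of Rab27b, Rab9, Rab14, Rab21 and Rab3d do.

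On the FPKM scale, 10 of the 45 tested members separated the groups without overlap, 7 higher and 3 lower in si-Fndc1, beside 25.1% of all tested genes (12.1% higher, 13.0% lower). All 10 were among the 15 called members.

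Because FPKM divides by length, the share of each paralog in its subfamily could be followed per library. In 5 of the 16 subfamilies compared, the share of a member did not overlap between the groups. How often shares separate in other gene families was not computed, and by FPKM level 25.1% of all tested genes did. The count is therefore not a result about the paralogs. Some shares could hardly move: Rab39b held 100% of its pair in every library and Rab9 at least 99.7%. Rab1a made up 45.03% to 48.61% of Rab1a and Rab1b in the si-Control libraries and 50.7% to 53.6% with the knockdown, so that Rab1b was the more abundant paralog in every si-Control library and Rab1a in every si-Fndc1 library. Rab4a made up 21.3% to 28.4% of the Rab4 pair in the si-Control libraries and 31.5% to 39.4% with the knockdown, while the sum of the pair was 20.4 ± 2.19 and 20.3 ± 0.836 FPKM (SD, n = 5 each). Rab5a made up 14.5% to 17.2% of its 3 paralogs in the si-Control libraries and 17.3% to 20.5% with the knockdown, a gap smaller than the spread within a group. Rab40c held 31.2% to 35.1% of its pair with Rab40b in the si-Control libraries and 35.2% to 42.3% with the knockdown. Neither gene of this pair was called as counted, and Rab40b was called lower with the offset (log2 fold change -0.29). Rab2a held 95.4% to 96.4% of its pair in the si-Control libraries and 96.5% to 96.8% with the knockdown, and the sum of the pair was 98.9 ± 1.29 and 127.2 ± 4.26 FPKM (SD, n = 5 each), without overlap. The shares of Rab11a and Rab32 overlapped between the groups. These shares were described and not tested, and in 4 of the 5 subfamilies (all but Rab40) the member that gained was the one with the lowest GC content.

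**Figure D3:**
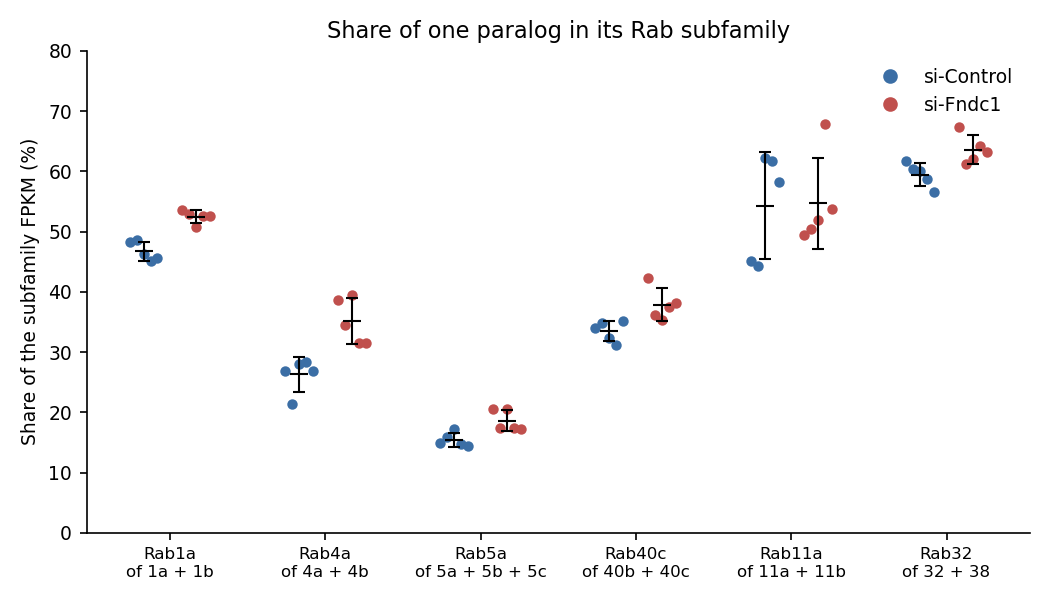
Share (%) of 1 paralog in the summed FPKM of its subfamily, with 1 point per library and the mean ± SD of 5 libraries per group. Rab1a, Rab4a, Rab5a and Rab40c do not overlap between si-Control and si-Fndc1, whereas Rab11a and Rab32 do.

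The direction of change went with GC content. Across the 45 tested members, log2 fold change and the GC content of the transcript had a Spearman correlation of -0.53, and GC at last codon positions had one of -0.60. Over the 11185 genes with a known GC content, measured in the same libraries, the Spearman correlation was -0.52, much the same as in Rab genes. The median GC content was 44.1% for the members that rose, 54.8% for those that fell and 49.6% for those not called. The trend with GC content and length was then fitted in each library and used as an offset. The offset takes that trend out by construction, so the weak correlation left among Rab genes (-0.08) is built in. Any biological change that follows GC content is taken out with it, so a lost call cannot tell a technical change from a biological one. With the offset 6 members were called, 4 higher and 2 lower, where it called 22.5% of all genes (12.2% higher, 10.3% lower). The members called in the same direction both ways were 5: Rab4a at 0.37 (adjusted p = 0.00523), Rab30 at 0.29 (adjusted p = 0.0121), Rab5a at 0.16 (adjusted p = 0.00514) and Rab2a at 0.12 (adjusted p = 0.00440) rose, and Rab6a at -0.30 (adjusted p = 0.00162) fell. Rab40b was called under the offset alone, at -0.29 (adjusted p = 0.00391). Rab11a, with a GC content of 39.5%, went to 0.12 (adjusted p = 0.127). Rab1a and Rab1b, with GC contents of 41.95% and 58.4%, went to -0.03 (adjusted p = 0.570) and -0.05 (adjusted p = 0.209). Likewise Rab9 went to -0.01 (adjusted p = 0.940), Rab32 to 0.09 (adjusted p = 0.315), Rab43 to -0.08 (adjusted p = 0.210), Rab14 to 0.11 (adjusted p = 0.0580), Rab21 to 0.03 (adjusted p = 0.470), Rab3d to -0.15 (adjusted p = 0.132) and Rab27b to 0.13 (adjusted p = 0.292). Rab4a had the highest GC content of the 11 members that rose, 53.7%, and G or C at 57.99% of its last codon positions, below the 66.8% of its paralog Rab4b.

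**Figure D4:**
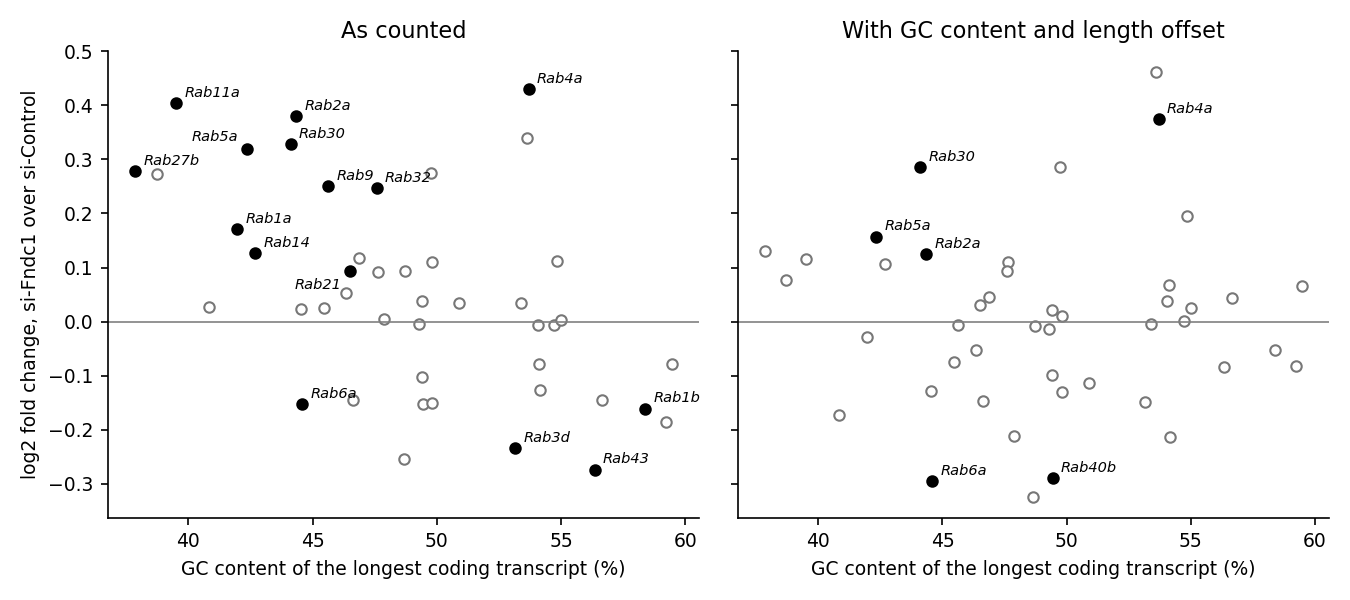
Log2 fold change (y axis) of the 45 tested Rab genes against the GC content of their longest coding transcript (x axis, %), as counted (left) and with the GC content and length offset (right), filled where the adjusted p was under 0.05. On the left the points slope down from AT-rich risers to GC-rich fallers (Spearman -0.53). On the right the slope is nearly gone (-0.08), as the offset removes it by construction, and 6 points are filled.

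A few abundant members varied widely between libraries of the same group. They were chosen after their values were seen. Of the 34 members with a mean of at least 5 FPKM, 5 had a within-group SD of log2 CPM of at least 0.3, where 6.90% of the 6924 genes at that level do. Rab22a, which recycles cargo from early endosomes, measured 13.98, 3.12, 4.96, 14.5 and 12.6 FPKM in si-Control and 3.19, 13.5, 12.6, 11.9 and 10.97 FPKM in si-Fndc1. Libraries 2 and 3 of si-Control and library 1 of si-Fndc1 were low, and the others lay together (within-group SD of 0.94 on the log2 scale). Rab18, a Rab of ER and lipid droplets, measured 16.3, 24.6, 24.4, 10.3 and 23.7 FPKM in si-Control and 28.4, 19.9, 29.4, 28.2 and 13.4 FPKM in si-Fndc1. Its low libraries were 1 and 4 of si-Control and 2 and 5 of si-Fndc1, none of them low for Rab22a.

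Rab11b measured 17.5, 18.5, 9.93, 8.54 and 10.1 FPKM in si-Control and 18.2, 18.4, 17.7, 9.79 and 17.3 FPKM in si-Fndc1. Libraries 3, 4 and 5 of si-Control and library 4 of si-Fndc1 were low, while the other 6 lay within 17.3 to 18.5 FPKM. Rab5c measured 55.5, 45.5, 33.7, 56.2 and 55.6 FPKM in si-Control and 41.3, 57.2, 36.2, 53.6 and 55.97 FPKM in si-Fndc1. Low values of Rab5c came from library 3 of both groups, library 2 of si-Control and library 1 of si-Fndc1. Rab12 measured 26.8, 26.6, 26.1, 25.7 and 21.6 FPKM in si-Control and 27.4, 24.9, 21.3, 21.2 and 10.8 FPKM in si-Fndc1, with library 5 the lowest in both groups. For these 5 genes the log2 fold changes (0.09, 0.27, 0.34, -0.01 and -0.25) did not pass the test, with standard errors of 0.16 to 0.46, and no single library was low in all of them. Those standard errors are so wide that a change of the size of that of Rab5a would not have been detectable in Rab22a.

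**Figure D5:**
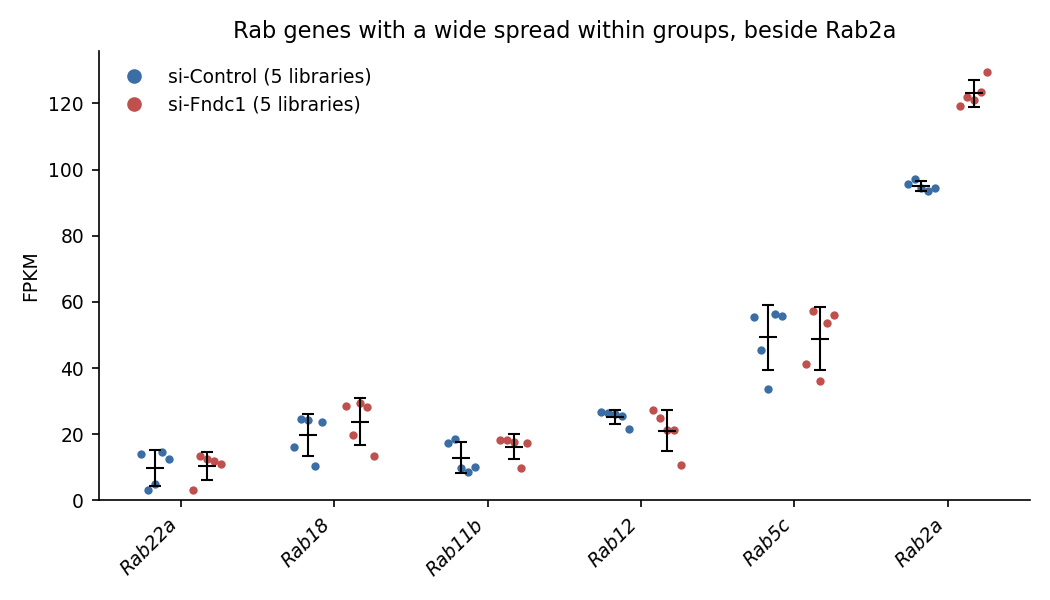
FPKM of Rab22a, Rab18, Rab11b, Rab12 and Rab5c, and of Rab2a for comparison, with 1 point per library and the mean ± SD of 5 libraries per group. The first 5 genes spread widely within at least 1 group, whereas Rab2a is tight within each group and separate between them.

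Reads could be shared with copies or neighbours of some members. The pseudogene Rab11b-ps2 had 694 to 1163 reads per library and Rab7-ps1 had 316 to 639, while Rab5a-ps had at most 3. The antisense gene Rab10os, which overlaps Rab10, had 830 to 1221 reads. Among called members, Rab6a overlaps Mrpl48 on the other strand (645 to 900 reads). Rab11a overlaps ENSMUSG00002076457 on its own strand, which had 2 to 308 reads per library against a mean of 3941 for Rab11a. Rab43 overlaps Gm45140 (3 to 231 reads) and Gm44423 (57 to 157 reads) on its own strand, against a mean of 4557 for Rab43. Rab24 overlaps Prelid1, which had 18299 reads on average against 1886 for Rab24, and Rab2b overlaps Tox4. Rab44 overlaps Rpl35a-ps3 (2113 reads on average against 716.5) and Rab3a overlaps Mpv17l2 (1816 against 969). Use of the strand in counting is not given in the sources used here, so levels of these pairs are uncertain.

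Of 148 genes in the table listed as loading, switching or reading Rabs, 127 were tested, 19 rose and 41 fell (47.2% called, beside the 34.4% of all genes). That split became 9 and 8 with the GC content and length offset. Of all tested genes 17.3% rose and 17.2% fell, and with the offset 12.2% and 10.3%. The median log2 fold change of the 127 was -0.06. Of the 8 prenylation and recycling genes, which attach Rabs to membranes, 2 rose and 1 fell (0 rose and 1 fell with the offset). Chm, the Rab escort protein, went from 4.63 ± 0.196 to 5.79 ± 0.197 FPKM (log2 fold change 0.33, edgeR adjusted p = 2.19e-04), and Rabggtb, a subunit of the geranylgeranyl transferase, from 19.8 ± 1.06 to 23.2 ± 0.611 FPKM (log2 fold change 0.24, edgeR adjusted p = 0.00116). Rabac1, the prenylated Rab acceptor, went from 90.1 ± 5.63 to 75.9 ± 5.65 FPKM (log2 fold change -0.24, edgeR adjusted p = 0.00889). Of 47 exchange factors, which load GTP, 6 rose and 15 fell (6 rose and 2 fell with the offset). The 3 with the smallest p all rose: the TRAPP subunits Trappc2l, from 10.4 ± 0.567 to 13.5 ± 0.651 FPKM (log2 fold change 0.38, edgeR adjusted p = 4.14e-04), and Trappc2, from 5.75 ± 0.426 to 7.66 ± 0.414 FPKM (log2 fold change 0.42, edgeR adjusted p = 5.61e-04), and the DENN protein Dennd10, from 3.004 ± 0.215 to 3.82 ± 0.145 FPKM (log2 fold change 0.36, edgeR adjusted p = 9.22e-04).

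Of 37 genes listed as GTPase-activating proteins, the class that switches Rabs off, 7 rose and 11 fell (2 rose and 2 fell with the offset). The list takes in every gene whose symbol starts with Tbc1d, and the activity of each protein was not checked. Tbck fell from 2.03 ± 0.106 to 1.40 ± 0.0546 FPKM (log2 fold change -0.53, edgeR adjusted p = 4.28e-05) and Sgsm2 from 6.22 ± 0.391 to 4.89 ± 0.323 FPKM (log2 fold change -0.34, edgeR adjusted p = 0.00133), while Tbc1d23, which tethers endosomal vesicles at the Golgi, rose from 6.70 ± 0.213 to 7.61 ± 0.139 FPKM (log2 fold change 0.19, edgeR adjusted p = 7.32e-04). Of 35 effectors 4 rose and 14 fell (1 rose and 3 fell with the offset). Among them were 2 partners of Rab11, Rab11fip5, which fell from 22.6 ± 0.794 to 16.9 ± 1.14 FPKM (log2 fold change -0.41, edgeR adjusted p = 1.002e-04), and Rab11fip3, which fell from 10.1 ± 0.383 to 8.25 ± 0.385 FPKM (log2 fold change -0.28, edgeR adjusted p = 4.12e-04). Sytl5, an effector of Rab27, fell from 8.95 ± 0.667 to 6.06 ± 0.746 FPKM (log2 fold change -0.55, edgeR adjusted p = 7.30e-04). The offset called 17 of the 127 in all, beside 22.5% of all genes, and left a median of 0.01. Of the 12 genes named here, Trappc2l, Trappc2, Tbck, Tbc1d23, Rabac1, Rab11fip5 and Sytl5 were called under the offset in the same direction, and Chm, Rabggtb, Dennd10, Sgsm2 and Rab11fip3 were not.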

How the data were processed

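mRNA of 10 C2C12 libraries was sequenced, and condition and replicate number were taken from the labels. The authors counted reads per gene and deposited the counts without normalization. The deposited FPKM values divide these counts by transcript length and library size, and the authors list them as 0.0001 where the count is 0. The methods of the study name TopHat and mm10, the series description STAR and mm9, and the submitters' processing notes GRCm39 and cutadapt 1.9, so coordinates are printed as listed, with no build named.

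Counts were tested where the FPKM averaged 0.5 or more (13548 genes) with edgeR 4.0.16 (TMM, quasi-likelihood test) in R 4.3.3, without covariates, with Benjamini-Hochberg adjustment over all of them. A standard error is the log2 fold change divided by the square root of F. Two-sided exact permutation tests of single FPKM levels were run, but their p-values are not given, since called members had been selected on the same libraries. Alternatives were other scalings and filters, DESeq2 1.42.0, limma 3.58.1, each library left out, a replicate block, and an offset for GC content and length (splines of 5 degrees of freedom in each library; GC content from GENCODE M1 transcripts of NCBIM37, for 82.6% of tested genes and all 45 tested Rab genes). On simulated data with 13548 genes, edgeR recovered 52 of 100 genes changed by 0.5 and 79 of 100 changed by 1 on the log2 scale, and called 5 unchanged genes. The simulation held no trend with GC content or length, so it does not measure calls that such a trend adds in the real data. The largest log2 fold change of a Rab gene was 0.43, so recovery at the sizes seen in Rab genes was not measured. Tables were handled in Python 3.11.15 with pandas 2.3.3, numpy 2.4.6 and scipy 1.17.1.

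The members and the role, regulator and marker lists were chosen with earlier results of these data known. Described with values per library are called members whose CPM did not overlap (at most 8 rises and 8 falls), the 5 most abundant, and Rab8a, Rab10, Rab13, Rab14 and Rab35. Of each regulator list the 3 genes with the smallest p are named. No pair of libraries within a group was as close as counting noise allows (the lowest ratio of chi-square to degrees of freedom was 39.97), and no label gives a sequencing batch. Total counts of 56332844 to 75995168 leave the spread between libraries as the limit for abundant members, whereas the 14 members under the threshold had at most 58 reads.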

Additional observations from a re-analysis of the deposited data

Results flagged for a closer look

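Of 90 groups of 5 libraries over the 45 tested Rab genes, 7 held a library that stood apart by Dixon's criterion at 95%, which chance exceeds in about 1 group in 20. Rab7 was low in si-Control library 1 (120.1 FPKM, the others 142.2 to 149.3). Rab12 was low in si-Control library 5 (21.64 FPKM, the others 25.66 to 26.79), and Rab36, of the Golgi, was low in the same library (0.5548 FPKM, the others 0.7074 to 0.7294). Rab35 was high in si-Fndc1 library 5 (22.2 FPKM, the others 21.12 to 21.43). Rab11b was low in si-Fndc1 library 4 (9.785 FPKM, the others 17.31 to 18.42), at the level of si-Control libraries 3 to 5. Rab22a was low in si-Fndc1 library 1 (3.192 FPKM, the others 10.97 to 13.45), as it was in si-Control libraries 2 and 3. Rab7b, a lysosomal relative of Rab7, was low in si-Fndc1 library 2 (1.568 FPKM, the others 1.841 to 1.931).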

How the results depend on the processing

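The 15 called Rab genes (11 higher, 4 lower) became 6 (4 higher, 2 lower) with the GC content and length offset and 5 (3 higher, 2 lower) with the offset and the replicate block together. Over the same settings all called genes went from 4663 to 2517 and 1651, and called regulators from 60 to 17 and 9. The same 11185 genes without the offset gave 4244 calls, so most of that loss is not from testing fewer genes. The replicate block alone left 2 Rab genes lower and 39 regulators. Replicate numbers are shared between the groups but did not pair the libraries (correlations of same-numbered deviations from -0.043 to 0.055, with 1 of the 5 si-Control libraries correlated best with its own number), and the block left 11 Rab genes called, without Rab6a (adjusted p = 0.0608), Rab21 (0.0957), Rab3d (0.0676) and Rab27b (0.0752). With each library left out in turn, 12 to 15 Rab genes were called, 9 to 12 higher and 3 to 5 lower, with 4000 to 4627 genes in all, 47 to 60 regulators, and a median over Rab genes of 0.0137 to 0.0507.

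The median log2 fold change of Rab genes went from 0.0346 to -0.0076 by limma on quantile-normalized log2(FPKM + 1), to 0.0006 with the offset and to 0.0057 with offset and block. Called rises that changed sign with the offset and with offset and block were Rab9 (-0.0067 and -0.0061) and Rab1a (-0.028 and -0.0284). Members without a call that changed sign were Rab7 (-0.0243 by limma, -0.0089 with the offset, -0.0052 with offset and block), Rab10 (-0.0099, -0.128 and -0.128), Rab31 (-0.0076 by limma), Rab35 (0.0375 with the offset, 0.0384 with offset and block, and 0.0007 over the same genes uncorrected, a setting chosen after seeing the data) and Rab5c (0.0006 and 0.0057). Leaving out libraries moved Rab35 between -0.0284 and 0.015, Rab22a between -0.1365 and 0.3234 and Rab5c between -0.1167 and 0.0835, and their FPKM ratios between 0.9762 and 1.0056, 0.9045 and 1.2426, and 0.9181 and 1.0545. The causes of these changes were not tested. Rab4a, Rab2a and Rab5a kept their call and direction in all 21 alternatives run for each. Without a filter on low values Rab6a, Rab14 and Rab21 lost their calls (adjusted p = 0.0585, 0.0558 and 0.0609), and 12 Rab genes were called. DESeq2 called 15, as did other scaling factors.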
